A study of Mus musculus with 12 samples.

Results

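A set of 9 genes of the complement system and the acute phase response were followed in serum-starved kidney epithelial cells: C3, Cfb, C4b, C1ra, C1s1, Cd55, Cd59a, Lcn2 and Saa3. They were taken by symbol through their Entrez identifiers, and all 9 were found among the 27179 genes of the table. The only measured value in the rule was the level, as genes below 10 normalized counts in every library were set apart as not measured. The list itself was selected on knowledge of earlier results of these libraries, so the values are given as descriptions and the tests only as part of the fit over all genes. C3, C4b, C1ra and C1s1 were highest in cells lacking Actr3, alone or with ciliobrevin D. In cells lacking both Actr3 and Ift88, C3, C1ra and C1s1 were much nearer to the control. C4b in those cells lay between the control and the Actr3 knockout. Cfb was higher than the control in all 3 edited groups, Lcn2 was highest in Actr3 knockout cells without ciliobrevin D, Cd59a was lowest in the ciliobrevin D group, and Cd55 and Saa3 were below the level counted as measured.

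Complement is a cascade of plasma proteins that marks surfaces for uptake or lysis. The proteases C1r and C1s start the classical pathway, in which C1s cleaves C4. C3 is the component on which all pathways converge, and factor B (Cfb) forms the convertase of the alternative pathway. CD55 and CD59 are membrane proteins that protect a cell from its own complement. Lipocalin 2 (Lcn2, also called NGAL) is a siderophore-binding protein released by injured tubule and collecting duct cells, and serum amyloid A3 (Saa3) is an acute phase protein made outside the liver in mice. Most of these genes are made in the liver, but renal epithelial cells also make C3, factor B and Lcn2.

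The cells were mIMCD3, a mouse line from the inner medullary collecting duct, and poly(A) RNA was sequenced from 3 libraries in each of 4 groups. Actr3 KO-1 CB cells carried the Actr3 knockout and received 0.5 µM ciliobrevin D, an inhibitor of the motor protein dynein, in the starvation medium. Actr3-Ift88 dKO cells carried knockouts of both Actr3 and Ift88 with control treatment, and Actr3 KO-1 cells carried the Actr3 knockout with control treatment. Control 1 cells were labelled wild type with control treatment. Every group reached confluence over 48 h with 10% serum and was then starved of serum for 24 h. Actr3 encodes a subunit of the Arp2/3 complex, which nucleates branched actin, and Ift88 encodes a subunit of the intraflagellar transport machinery that builds cilia. Each edited genotype was 1 line, so a difference between genotypes cannot be told apart from a difference between lines. There was no ciliobrevin D arm in the control or dKO cells, and no line lacking Ift88 alone. Nothing in the labels tells whether replicate libraries were separate cultures, so the p-values measure the spread between these libraries, which may be technical. The name of 1 control column carries a line number, Ctrl.-2, and a replicate number that fit no library title. It was used as a Control 1 library because its name says control, it may come from another control line, and it is called the unnumbered control library.

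Levels are normalized counts, that is, reads divided by a library factor, and were compared between genes only per kilobase of exon. The libraries held 28902562 to 38077987 reads, with control libraries the deepest (37001577 to 38077987). Actr3 averaged 1573 ± 180 normalized counts in Actr3 KO-1 CB, 871 ± 38.6 in dKO, 1218 ± 111 in Actr3 KO-1 and 8336 ± 293 in Control 1 (SD, n = 3 each), with no overlap between any edited group and the control. Ift88 averaged 438 ± 4.29 in Actr3 KO-1 CB, 604 ± 29.8 in dKO, 617 ± 34.2 in Actr3 KO-1 and 457 ± 14.9 in Control 1, and a count over the whole gene does not check a short edit. Of 18 markers of collecting duct epithelium 16 passed the filter, Krt8, Epcam and Pax8 among them, whereas the water channel gene Aqp2 (at most 1.86) and Elf5 (at most 2.67) were near 0. The summed level of the 18 was 106881 to 111074 in Actr3 KO-1 CB, 115035 to 126770 in dKO, 82543 to 89026 in Actr3 KO-1 and 156163 to 175840 in Control 1. In Actr3 KO-1 against Control 1, 10 of the 16 were called lower and 2 higher. Of all tested genes, 35.4% were called lower and 34.4% higher in this comparison (69.8% in all). Krt19 was at -1.77 ± 0.07 and Cldn4 at -1.41 ± 0.09 on the log2 scale (limma adjusted p = 4.39e-15 and 6.16e-12). Aqp3, a gene of low level, was also lower (-1.552 ± 0.506, limma adjusted p = 0.00981). It reached 10 only in libraries of dKO and Control 1, so it passed the filter only through groups in which it was high. Gata3 went the other way in Actr3 KO-1, at 1.495 ± 0.231 (limma adjusted p = 7.04e-06). It was also higher than Control 1 in dKO (1.871 ± 0.231, limma adjusted p = 3.78e-07) and Actr3 KO-1 CB (1.779 ± 0.231, adjusted p = 9.05e-07). Of 10 leukocyte markers 3 passed. Their summed level was 1192 to 1510 in Actr3 KO-1 CB, 3252 to 3377 in dKO, 4249 to 4608 in Actr3 KO-1 and 3114 to 3613 in Control 1, most of it from Csf1r, while Lyz2, Adgre1 and Tyrobp stayed at 1.23 or less in every library. Cd68 and Ptprc, which also passed, did not follow this sum. Cd68 averaged 332 in Actr3 KO-1 CB, 139 in dKO, 161 in Actr3 KO-1 and 161 in Control 1. Ptprc averaged 13.001 in Actr3 KO-1 CB, 4.71 in dKO, 1.66 in Actr3 KO-1 and 26.3 in Control 1. It was higher in Actr3 KO-1 CB than in Actr3 KO-1 (2.39 ± 0.37 on the log2 scale, limma adjusted p = 7.88e-06). Ptprc held 5 reads in Actr3 KO-1 and reached 10 only in libraries of Control 1 and Actr3 KO-1 CB. It thus passed the filter only through groups in which it was high. Hepatocyte markers summed to 1.20 to 8.89 in Actr3 KO-1 CB, 0 to 0.981 in dKO, 0 to 1.99 in Actr3 KO-1 and 0 to 3.61 in Control 1. Of 7 fibroblast markers 3 passed, their sum spanned 107 to 183 over all groups, most of it from Col1a1, and Col1a2 and Col3a1 were at 0 in every library. Pdgfra averaged 6.24 ± 1.43 in Actr3 KO-1 CB, 28.1 ± 8.33 in dKO, 9.65 ± 2.74 in Actr3 KO-1 and 2.91 ± 3.60 in Control 1 (SD, n = 3 each). Dcn averaged 8.68 ± 0.927 in Actr3 KO-1 CB, 16.7 ± 2.82 in dKO, 12.8 ± 3.94 in Actr3 KO-1 and 4.69 ± 2.73 in Control 1. The 5 endothelial markers summed to 4.14 to 27.2 over all groups and none passed the filter. The part of these marker levels in the results below was not tested. In bulk RNA, fewer cells making a transcript and less of it per cell cannot be told apart.

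The promoters of 3 of the genes are shown, each of which holds letters that fit the C/EBP pattern, a factor family known for acute phase promoters. Of the patterns described below, C3 and C1s1 share one and Lcn2 has another. Those of C4b, Cfb and Cd59a are not represented. Each line is the 250 bases before the start site, 5′ to 3′, from RefSeq in GRCm38.p6 (minus strand of chr17:57228137-57228386 for C3, chr6:124542360-124542609 for C1s1 and chr2:32387740-32387989 for Lcn2), and the capitals mark the match to TTGCNNAA on either strand.
C3: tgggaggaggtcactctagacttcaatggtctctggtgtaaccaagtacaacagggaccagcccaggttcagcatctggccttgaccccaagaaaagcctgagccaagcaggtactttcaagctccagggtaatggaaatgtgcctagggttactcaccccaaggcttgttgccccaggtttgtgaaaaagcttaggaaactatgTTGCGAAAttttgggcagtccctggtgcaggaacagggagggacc
C1s1: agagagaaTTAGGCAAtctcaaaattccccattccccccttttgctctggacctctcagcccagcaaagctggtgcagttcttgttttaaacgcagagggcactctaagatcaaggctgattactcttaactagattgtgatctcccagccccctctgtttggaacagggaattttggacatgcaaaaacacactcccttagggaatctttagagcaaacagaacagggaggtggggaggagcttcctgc
Lcn2: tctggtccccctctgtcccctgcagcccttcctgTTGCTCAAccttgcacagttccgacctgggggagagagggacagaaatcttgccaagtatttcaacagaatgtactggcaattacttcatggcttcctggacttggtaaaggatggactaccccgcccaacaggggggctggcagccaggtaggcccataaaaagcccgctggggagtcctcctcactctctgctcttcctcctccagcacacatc
The match began 45 bases before the start in C3, 242 before it in C1s1 and 216 before it in Lcn2, and C1s1 has another annotated start whose window holds no match. RefSeq windows running from 250 bases before to 50 after the start were given for 7 of the 9 genes, all but Cfb and C4b. The C/EBP pattern was found in 5 of these 7 genes, against 10.8% of all 32851 mouse windows, with the other matches 16 bases after the start in C1ra and 99 before it in Saa3. The counts here are per gene, with a match in any of its windows, whereas the shares are per window. C1s1 has 2 windows, so the 2 measures are not alike. An interferon response pattern (ISRE, both strands) was found in 2 of the 7, Cd59a and Saa3, against 3.44% of all windows. A STAT pattern (TTCNNNGAA) was found in 1, C1ra, against 8.3%, and neither the kappaB pattern (8.46% of all windows) nor the AP-1 pattern TGANTCA (7.81%) was found in any of the 7. Overlap between matches was not removed. A match is a string of letters in a window and not a binding site.

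C1ra (Entrez 50909, chr6:124512621-124523440) encodes the C1r protease. It stood at 144, 143 and 110 normalized counts in Actr3 KO-1 CB, 54.8, 49.0 and 47.1 in dKO, 246, 224 and 231 in Actr3 KO-1, and 32.1, 46.0 and 44.5 in Control 1. The 4 groups did not overlap, with Actr3 KO-1 highest, the ciliobrevin D group next, and dKO only just above the control. On the log2(value + 1) scale C1ra was higher in Actr3 KO-1 than in Control 1 by 2.50 ± 0.16 (SE; limma, Benjamini-Hochberg adjusted p = 1.16e-11 over 13939 genes). Relative to Actr3 KO-1 the log2 difference was -0.82 ± 0.16 in Actr3 KO-1 CB (limma adjusted p = 0.000103) and -2.19 ± 0.16 in dKO (adjusted p = 1.03e-10). The dKO difference from Control 1 was 0.31 ± 0.16 and did not pass (adjusted p = 0.0889). Without Control 1 replicate 1 it was 0.15 (adjusted p = 0.425), without Control 1 replicate 3 it was 0.40 and passed (adjusted p = 0.0491), and with quantile normalization it was 0.41 and passed (adjusted p = 0.0274). Chromosome 6, which holds C1ra and C1s1, had a median log2 difference of -0.41 in Actr3 KO-1 CB, -0.39 in dKO and -0.42 in Actr3 KO-1 against Control 1 over 638 tested genes. With the chromosome medians subtracted the dKO difference of C1ra became 0.68 and passed (limma adjusted p = 0.000765).

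C1s1 (Entrez 50908, chr6:124530344-124542392), the neighbouring gene for the C1s protease whose promoter is printed above, moved like C1ra at a lower level. It stood at 50.5, 35.8 and 62.2 normalized counts in Actr3 KO-1 CB, 10.2, 20.3 and 16.7 in dKO, 82.4, 76.6 and 81.4 in Actr3 KO-1, and 11.3, 5.41 and 16.0 in Control 1. Actr3 KO-1 lay above all other libraries, the ciliobrevin D group lay between, and dKO overlapped the control. C1s1 was 2.88 ± 0.31 higher in Actr3 KO-1 than in Control 1 on a log2 scale (SE; limma, adjusted p = 5.00e-08) and lower in dKO than in Actr3 KO-1 (-2.33 ± 0.31, adjusted p = 1.21e-06). The difference between Actr3 KO-1 CB and Actr3 KO-1 (-0.72 ± 0.31, limma adjusted p = 0.0490) sat at the threshold and was lost in 11 of 22 alternative settings, with adjusted p up to 0.209 without the second ciliobrevin D replicate. The difference between dKO and Control 1 was 0.55 ± 0.31 and did not pass (limma adjusted p = 0.123), but it passed in 5 of the 22 settings. Single libraries moved it widely: it was 0.16 without Control 1 replicate 3 (adjusted p = 0.643), 0.35 without dKO replicate 2 (adjusted p = 0.383), 0.82 without dKO replicate 1 (adjusted p = 0.0360) and 0.87 without the unnumbered control library (adjusted p = 0.0227). Exons of C1s1 share 576 bases with Gm16567 on the opposite strand, and the sources used here do not say if counting took strand into account. The related gene C1s2 did not rise in the same way. It averaged 11.8 ± 3.30 in Actr3 KO-1 CB, 6.33 ± 1.62 in dKO, 18.6 ± 5.22 in Actr3 KO-1 and 19.3 ± 8.31 in Control 1 (SD, n = 3 each). How reads of the pair were assigned in counting is not stated.

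C4b (Entrez 12268, chr17:34728139-34743902) encodes complement component C4, the substrate of C1s. It stood at 112, 85.2 and 90.0 normalized counts in Actr3 KO-1 CB, 10.2, 11.1 and 7.85 in dKO, 57.6, 55.9 and 54.6 in Actr3 KO-1, and 0.867, 0.902 and 1.78 in Control 1. The 4 groups did not overlap, and unlike C1ra, C1s1 and C3 the ciliobrevin D group was the highest. The control held only 4 reads over its 3 libraries, so ratios of summed, depth-corrected reads are given with an exact 95% interval that covers counting error only. The ratio to Control 1 was 80.9 in Actr3 KO-1 CB (243 reads, interval 31.2 to 299), 8.26 in dKO (31 reads, 2.92 to 32.2) and 47.4 in Actr3 KO-1 (169 reads, 18.2 to 176). Within the edited cells, C4b was lower in dKO than in Actr3 KO-1 (-2.42 ± 0.27 on the log2 scale, limma adjusted p = 7.22e-08). It was 0.75 ± 0.27 higher in Actr3 KO-1 CB than in Actr3 KO-1 (limma adjusted p = 0.0180), a call lost without the first ciliobrevin D replicate (0.63, adjusted p = 0.0876) and without Actr3 KO-1 replicate 3 (0.73, adjusted p = 0.0517). C4b passed the filter of 10 in 3 libraries only through groups in which it was high. Its near-identical neighbour C4a averaged 61.2 ± 17.0 in Actr3 KO-1 CB, 78.4 ± 2.36 in dKO, 72.7 ± 5.93 in Actr3 KO-1 and 56.3 ± 12.1 in Control 1 (SD, n = 3 each), and reads of the pair may have been split between them in counting.

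C3 (Entrez 12266, chr17:57203967-57228136) encodes the component cleaved by every activation pathway. Its levels were 1427, 767 and 796 normalized counts in Actr3 KO-1 CB, 239, 242 and 280 in dKO, 2162, 1901 and 2392 in Actr3 KO-1, and 132, 165 and 150 in Control 1. The 4 groups did not overlap, and the first ciliobrevin D library stood well above the other two of its group. C3 was 14.4-fold higher in Actr3 KO-1 than in Control 1, or 3.84 ± 0.16 on the log2 scale (SE; limma adjusted p = 2.04e-14). It was 1.70-fold higher in dKO than in Control 1 (0.76 ± 0.16 on the log2 scale, limma adjusted p = 0.000216) and 6.69-fold higher in Actr3 KO-1 CB than in Control 1 (2.68 ± 0.16, adjusted p = 6.60e-12). Relative to Actr3 KO-1 it was lower in dKO by 8.48-fold (log2 difference -3.08 ± 0.16, limma adjusted p = 5.62e-13) and lower in Actr3 KO-1 CB by 2.16-fold (-1.16 ± 0.16, adjusted p = 1.41e-06).

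Cfb (Entrez 14962, chr17:34856374-34862514), the alternative pathway protease that pairs with C3b, followed another pattern. It stood at 213, 168 and 178 normalized counts in Actr3 KO-1 CB, 232, 252 and 214 in dKO, 203, 185 and 195 in Actr3 KO-1, and 127, 123 and 144 in Control 1. Every edited library lay above every control library, dKO lay highest, and the Actr3 KO-1 CB and Actr3 KO-1 groups overlapped. The log2 difference from Control 1 was 0.50 ± 0.11 in Actr3 KO-1 CB (limma adjusted p = 0.000700), 0.82 ± 0.11 in dKO (adjusted p = 1.91e-06) and 0.56 ± 0.11 in Actr3 KO-1 (adjusted p = 0.000162). Between Actr3 KO-1 CB and Actr3 KO-1 it was -0.07 ± 0.11 (limma adjusted p = 0.611). Between dKO and Actr3 KO-1 it was 0.26 ± 0.11 and missed the threshold (adjusted p = 0.0541), though it passed in 7 of 23 alternative settings, among them those without Actr3 KO-1 CB replicate 1 (0.26, adjusted p = 0.0395) and without dKO replicate 3 (0.31, adjusted p = 0.0402). Actr3 KO-1 CB was below dKO (-0.32 ± 0.11, limma adjusted p = 0.0146), a call lost without the second ciliobrevin D replicate (-0.25, adjusted p = 0.0763) and without dKO replicate 2 (-0.27, adjusted p = 0.0719), and with chromosome medians subtracted (-0.22, adjusted p = 0.0828). The exons of Cfb share 2246 bases on the same strand with Gm20547, a read-through model, so how its reads were assigned is uncertain.

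Cd59a (Entrez 12509, chr2:104095753-104115410) encodes CD59, which blocks the last step of the lytic pore. It stood at 237, 264 and 278 normalized counts in Actr3 KO-1 CB, 342, 404 and 377 in dKO, 343, 360 and 317 in Actr3 KO-1, and 328, 319 and 337 in Control 1. The ciliobrevin D libraries were below all others, Actr3 KO-1 overlapped the control, and dKO lay just above the control. Cd59a was lower in Actr3 KO-1 CB than in dKO (-0.53 ± 0.09 on the log2 scale, limma adjusted p = 2.50e-05), than in Actr3 KO-1 (-0.39 ± 0.09, adjusted p = 0.000810) and than in Control 1 (-0.34 ± 0.09, adjusted p = 0.00275). The difference from Control 1 was 0.05 ± 0.09 in Actr3 KO-1 (limma adjusted p = 0.633) and 0.19 ± 0.09 in dKO (adjusted p = 0.0737), the second passing in 3 of 23 settings, one of them the fit without dKO replicate 1 (0.25, adjusted p = 0.0337).

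Cd55 (Entrez 13136, chr1:130429798-130465009) encodes decay-accelerating factor, which takes apart the C3 convertases. It was listed at 0 in all 9 edited libraries and at 4.34, 4.51 and 0.889 normalized counts in Control 1, a total of 11 reads. The highest of these is below 10, so Cd55 counts as not measured and was not tested. Its exons overlap Gm16083 on the opposite strand by 102 bases.

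Lcn2 (Entrez 16819, chr2:32384637-32387739), whose promoter is printed above, was the most abundant of these transcripts per kilobase. It stood at 1652, 1059 and 1166 normalized counts in Actr3 KO-1 CB, 1782, 1752 and 1770 in dKO, 2485, 2431 and 2457 in Actr3 KO-1, and 945, 1760 and 1216 in Control 1. Actr3 KO-1 lay above every other library, dKO overlapped the control through 1 high control library, and the ciliobrevin D libraries lay within the range of the control. Lcn2 was 1.88-fold higher in Actr3 KO-1 than in Control 1 (0.96 ± 0.15 on the log2 scale, limma adjusted p = 8.69e-06) and lower in Actr3 KO-1 CB than in Actr3 KO-1 (-0.95 ± 0.15, adjusted p = 1.08e-05). Actr3 KO-1 CB differed from Control 1 by 0.0042 ± 0.15 (limma adjusted p = 0.983). The dKO group was 0.48 ± 0.15 above Control 1 (limma adjusted p = 0.00761), which was lost without Control 1 replicate 1 (0.27, adjusted p = 0.0881) and with DESeq2 (adjusted p = 0.0913). It was lower in dKO than in Actr3 KO-1 (-0.47 ± 0.15, limma adjusted p = 0.00865), but not by DESeq2 (adjusted p = 0.0637). It was lower in Actr3 KO-1 CB than in dKO (-0.48 ± 0.15, limma adjusted p = 0.00723), a call lost without the second ciliobrevin D replicate (adjusted p = 0.0612) and with DESeq2 (adjusted p = 0.0768). Saa3 (Entrez 20210, chr7:46711998-46719615) had 1 read in dKO replicate 2 (0.925 normalized counts), 1 read in Actr3 KO-1 replicate 1 (0.993) and 0 in every other library, and counts as not measured.

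**Figure D1:**
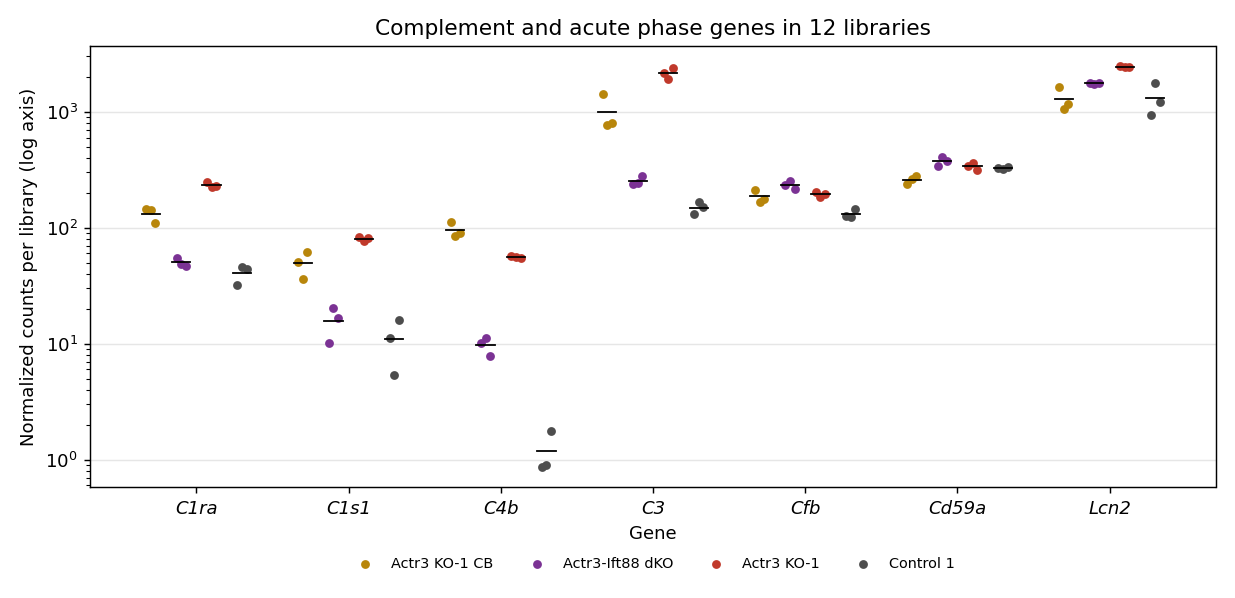
Normalized counts (log axis) of the 7 measured genes in each of the 12 libraries, by group, with points for libraries and a bar for the group mean. C3, C1ra and C1s1 peak in Actr3 KO-1, C4b peaks in Actr3 KO-1 CB at 85.2 to 112, and Cfb, Cd59a and Lcn2 span a far narrower range.

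Per kilobase of exon the order of the genes changed between groups. In Actr3 KO-1 CB the means were 493 for Lcn2, 194 for C3, 143 for Cd59a, 65.9 for Cfb, 44.5 for C1ra, 16.8 for C4b and 15.8 for C1s1. In dKO they were 674 for Lcn2, 207 for Cd59a, 82.3 for Cfb, 49.3 for C3, 16.9 for C1ra, 5.03 for C1s1 and 1.71 for C4b. In Actr3 KO-1 they were 937 for Lcn2, 418 for C3, 188 for Cd59a, 78.4 for C1ra, 68.8 for Cfb, 25.6 for C1s1 and 9.84 for C4b, against 498 for Lcn2, 181 for Cd59a, 46.5 for Cfb, 29.0 for C3, 13.7 for C1ra, 3.48 for C1s1 and 0.208 for C4b in Control 1. C3 thus stood next to Lcn2 in both Actr3 KO-1 groups and below Cd59a and Cfb in dKO and Control 1, while Lcn2 stood highest in all 4. The libraries of C3 and Cd59a in Actr3 KO-1 CB overlapped on this scale, as did those of C4b and C1s1, so the order within each pair is not set.

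Of the 7 genes tested, 6 were called higher in Actr3 KO-1 than in Control 1 and none lower, where 34.4% of all 13939 tested genes were called higher and 35.4% lower, 69.8% in all. In dKO against Control 1, 4 of 7 (C3, Cfb, C4b and Lcn2) were called higher, against 32.0% of all genes called higher and 35.1% lower (67.1% in all). In Actr3 KO-1 CB against Control 1, 5 were called higher and Cd59a lower, against 33.0% of all genes called higher and 32.0% lower (65.1% in all). These 3 comparisons share the control libraries.

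Against Actr3 KO-1, 5 of the 7 were called lower in dKO and none higher, where 32.5% of all genes were called higher and 33.2% lower (65.7% in all). In Actr3 KO-1 CB, 5 were called lower and C4b higher, where 32.7% of all genes were called higher and 32.9% lower (65.5% in all). In Actr3 KO-1 CB against dKO, C3, C4b, C1ra and C1s1 were called higher and Cfb, Cd59a and Lcn2 lower, where 37.0% of all genes were called higher and 36.3% lower (73.4% in all). The median log2 difference of the 7 genes was 2.50 in Actr3 KO-1 against Control 1, 0.55 in dKO against Control 1 and 1.68 in Actr3 KO-1 CB against Control 1. It was -2.19 in dKO against Actr3 KO-1, -0.72 in Actr3 KO-1 CB against Actr3 KO-1 and 1.37 in Actr3 KO-1 CB against dKO, while the median of all genes lay between -0.02 and 0.01 throughout. Since the genes were chosen with these results known and C4b passed the filter through groups in which it was high, the counts and medians describe these genes and support nothing further.

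**Figure D2:**
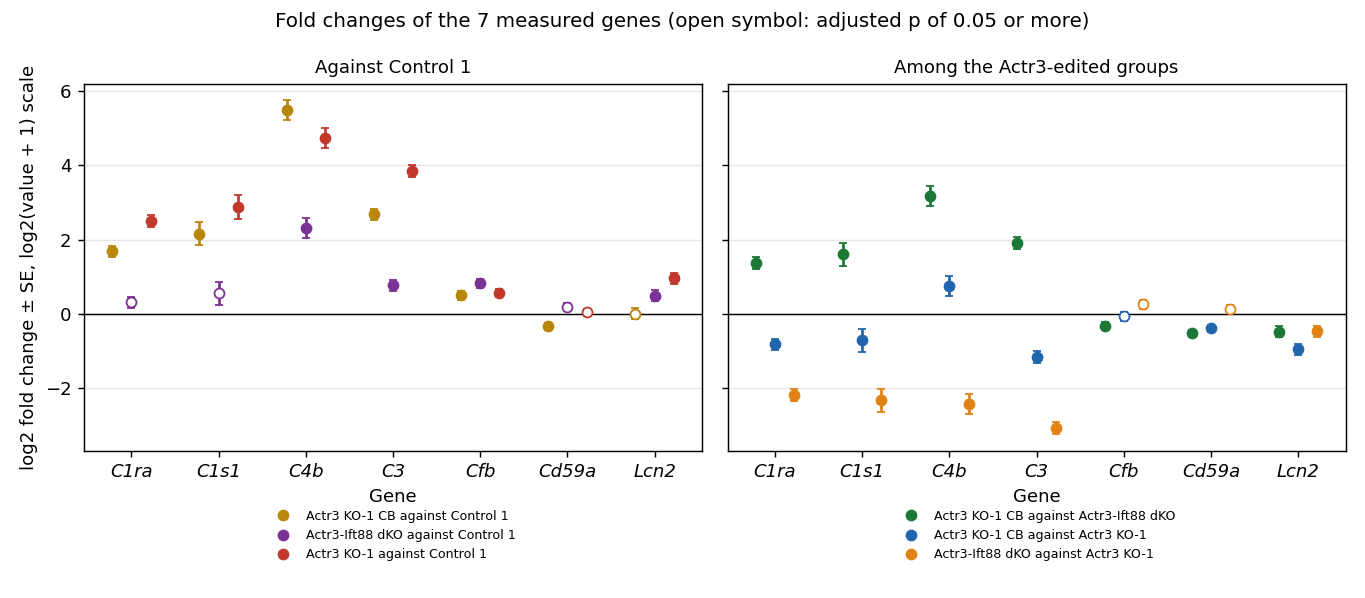
Log2 differences with their standard errors for the 7 measured genes against Control 1 (left panel) and among the 3 edited groups (right panel). Filled points passed an adjusted p of 0.05 and open points did not, and C4b lies highest against Control 1 at this pseudocount of 1. With a pseudocount of 5, C3 (3.81) lies above C4b (3.31) in Actr3 KO-1.

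Among 19 other genes that start the cascade, 10 were below 10 in every library, and the recognition subunit genes C1qa, C1qb and C1qc were at 0 in all of them. Of the 7 that were tested, 4 were called higher in Actr3 KO-1 than in Control 1 and none lower, with a median log2 difference of 0.57, where 34.4% of all genes were called higher and 35.4% lower (69.8% in all). One of them, C1rb, a near-identical copy of C1ra, reached 10 in only 3 libraries, all of the Actr3 KO-1 CB and Actr3 KO-1 groups, so it passed the filter only where it was high. C1rb averaged 9.07 ± 2.57 normalized counts in Actr3 KO-1 CB, 2.91 ± 3.55 in dKO, 9.88 ± 3.40 in Actr3 KO-1 and 2.65 ± 1.77 in Control 1 (SD, n = 3 each). The other 3 were the C1r-like protease gene C1rl (1.17 ± 0.22, limma adjusted p = 7.31e-05), the lectin pathway protease gene Masp1 (0.67 ± 0.21, adjusted p = 0.00693) and the gene for properdin, Cfp, which stabilises the alternative convertase (0.57 ± 0.14, adjusted p = 0.00107). In dKO against Actr3 KO-1, 5 of the 7 were called lower and none higher (33.2% and 32.5% of all genes), Masp1 with the largest drop of the 4 named (-2.42 ± 0.21, limma adjusted p = 1.59e-09). In Actr3 KO-1 CB against Actr3 KO-1, 1 of the 7 was called lower, C1rl (-0.90 ± 0.22, limma adjusted p = 0.00120), and 6 were not called. Of all genes, 32.9% were called lower and 32.7% higher in this comparison (65.5% in all). Of 7 genes of the terminal pathway 6 were below 10 everywhere. The remaining one, C8g, averaged 12.0 ± 5.65 normalized counts in Actr3 KO-1 CB, 23.3 ± 6.06 in dKO, 29.9 ± 15.1 in Actr3 KO-1 and 13.9 ± 8.61 in Control 1 (SD, n = 3 each). It was called higher in Actr3 KO-1 than in Control 1 (1.13 ± 0.44 on the log2 scale, limma adjusted p = 0.0288). The groups overlapped, as the lowest Actr3 KO-1 library (17.2) was below the highest of Control 1 (22.6).

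Of 23 regulators and receptors of complement listed besides Cd55 and Cd59a, 8 were tested, and in Actr3 KO-1 against Control 1, 2 were called higher and 5 lower (median log2 difference -0.54), a called share that is read against the 69.8% of all genes called in this comparison. C4bp, which binds C4b, fell in all 3 edited groups against Control 1, with log2 differences of -1.81 ± 0.22 in Actr3 KO-1 CB, -1.30 ± 0.22 in dKO and -1.58 ± 0.22 in Actr3 KO-1 (limma adjusted p at most 2.15e-05). Clu, the gene for clusterin, an inhibitor of pore assembly, was lower in dKO than in Control 1 (-1.77 ± 0.05 on the log2 scale, limma adjusted p = 7.16e-17), and lower in Actr3 KO-1 (-0.67 ± 0.05, adjusted p = 5.06e-10). Itgb2, the beta subunit gene of complement receptors 3 and 4, averaged 22.8 ± 2.60 normalized counts in Actr3 KO-1 CB, 178 ± 22.6 in dKO, 34.1 ± 4.38 in Actr3 KO-1 and 88.7 ± 12.6 in Control 1 (SD, n = 3 each). It was higher in dKO than in Control 1 (1.00 ± 0.17 on the log2 scale, limma adjusted p = 3.19e-05) and lower in Actr3 KO-1 CB (-1.91 ± 0.17, adjusted p = 4.96e-09) and Actr3 KO-1 (-1.35 ± 0.17, adjusted p = 5.64e-07). Cd46, the membrane cofactor gene, averaged 10.4 in Actr3 KO-1 CB, 7.60 in dKO, 7.20 in Actr3 KO-1 and 2.67 in Control 1. It reached 10 in only 3 libraries, all of the Actr3 KO-1 CB and Actr3 KO-1 groups, the lowest library of each of these groups (4.44 and 4.14) was below the highest of Control 1 (4.51), and its call as higher rests on passing the filter where it was high.

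Of 32 other acute phase genes, 22 were below 10 in every library and 10 were tested. In Actr3 KO-1 against Control 1, 7 were called higher and 1 lower (median log2 difference 0.82), where 34.4% of all genes were called higher and 35.4% lower. Agt, which encodes angiotensinogen, averaged 347 ± 29.2 normalized counts in Actr3 KO-1 CB, 14.5 ± 5.07 in dKO, 207 ± 9.94 in Actr3 KO-1 and 29.2 ± 2.96 in Control 1 (SD, n = 3 each), so that, like C4b, it was highest with ciliobrevin D. Cp, which encodes the copper carrier ceruloplasmin, was higher in Actr3 KO-1 than in Control 1 (1.48 ± 0.07, limma adjusted p = 1.46e-13) and lower in dKO than in Control 1 (-0.47 ± 0.07, adjusted p = 4.91e-06). Serpina3g, a protease inhibitor gene of a family with near-identical copies, averaged 49.7 ± 20.6 in Actr3 KO-1 CB, 82.2 ± 8.96 in dKO, 47.3 ± 6.34 in Actr3 KO-1 and 2.95 ± 0.451 in Control 1, and like Cfb was highest in dKO. It passed the filter only through the edited groups. Slc22a17, which encodes a receptor for lipocalin 2, was higher in Actr3 KO-1 than in Control 1 (1.18 ± 0.15, limma adjusted p = 6.87e-07) and in dKO (1.00 ± 0.15, adjusted p = 7.75e-06), and at 0.01 ± 0.15 in Actr3 KO-1 CB (adjusted p = 0.978). In dKO against Actr3 KO-1, 3 of the 10 were called higher and 4 lower (65.7% of all genes were called), and in Actr3 KO-1 CB against Actr3 KO-1, 5 higher and 4 lower (65.5% of all genes).

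Of 25 genes that signal to the acute phase response, 23 were tested, and 12 were called higher and 6 lower in Actr3 KO-1 than in Control 1 (median log2 difference 0.38), a called share near the 69.8% of all genes. Relb, an NF-kappaB subunit gene, was higher than Control 1 in all 3 edited groups, most in Actr3 KO-1 CB (1.87 ± 0.08, limma adjusted p = 5.25e-14). Cebpb, a C/EBP factor gene, was higher in Actr3 KO-1 CB than in Control 1 (0.47 ± 0.07, limma adjusted p = 4.81e-06) and lower in dKO (-1.13 ± 0.07, adjusted p = 8.40e-12) and Actr3 KO-1 (-1.06 ± 0.07, adjusted p = 2.17e-11). Lif, a cytokine gene, was likewise higher in Actr3 KO-1 CB (0.49 ± 0.08, limma adjusted p = 3.38e-05) and lower in dKO (-1.35 ± 0.08, adjusted p = 1.05e-11) and Actr3 KO-1 (-1.01 ± 0.08, adjusted p = 9.93e-10). In dKO against Actr3 KO-1, 1 of the 23 was called higher and 14 lower, where 32.5% of all genes were called higher and 33.2% lower. Against Actr3 KO-1, 15 were called higher and 7 lower in Actr3 KO-1 CB, where 32.7% of all genes were called higher and 32.9% lower.

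**Figure D3:**
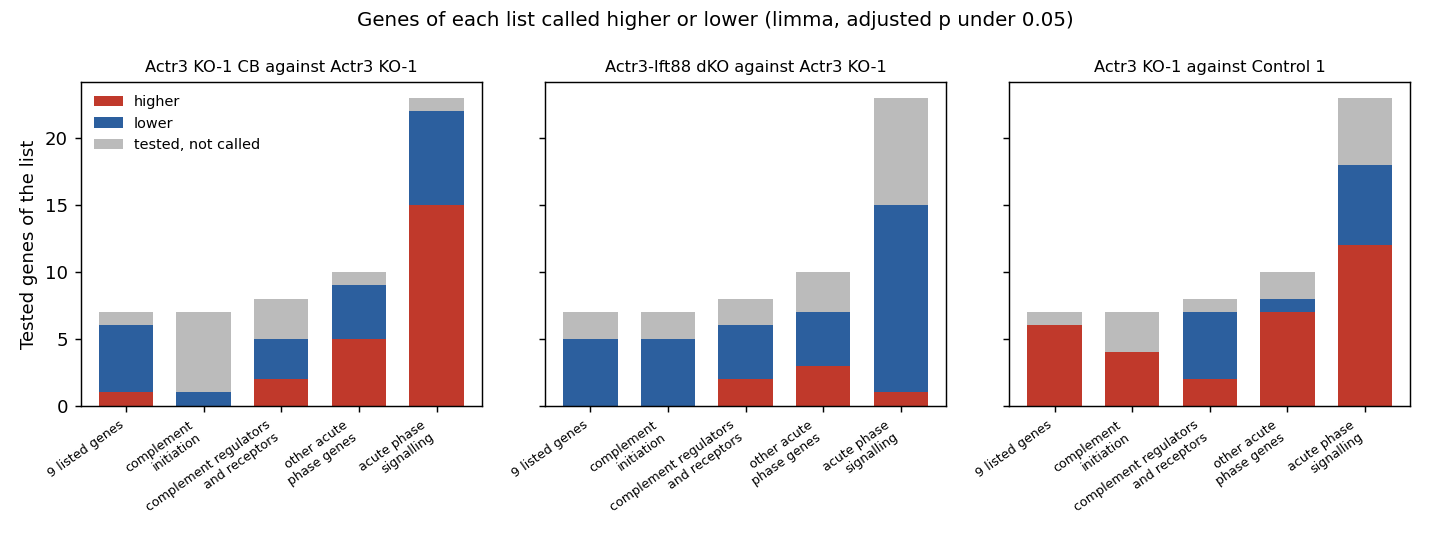
Number of tested genes called higher, called lower and not called in the 9-gene list and 4 lists of related genes, for Actr3 KO-1 CB against Actr3 KO-1, dKO against Actr3 KO-1 and Actr3 KO-1 against Control 1. Of the 23 acute phase signalling genes, 15 were called higher in Actr3 KO-1 CB and 14 lower in dKO, each against Actr3 KO-1.

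The genes whose profile over the 12 libraries was nearest to that of each gene were found by the root mean square difference of centred log2 values. For C3, whose own profile had a root mean square of 1.54, they were the laminin gene Lama1 (0.30), the caspase gene Casp4 (0.34) and the collagen gene Col6a1 (0.55). Lama1 averaged 812 normalized counts in Actr3 KO-1 CB, 303 in dKO, 1787 in Actr3 KO-1 and 174 in Control 1. For C1ra (1.03) they were Lgals3bp (0.27), Sox8 (0.29) and Fbln1 (0.30), and for C1s1 (1.23) Fam184b (0.42), Col6a1 (0.43) and Lama1 (0.44). For C4b (2.16) they were Rragd (0.56), Nlrc5 (0.61) and Slc35f3 (0.64). Nlrc5, a regulator of antigen presentation genes, averaged 349 in Actr3 KO-1 CB, 95.4 in dKO, 303 in Actr3 KO-1 and 6.48 in Control 1. The nearest genes to Cfb (0.31) were Sgpl1, Pih1d1 and Prkcz, all at 0.11, those to Cd59a (0.21) were Ccdc61 (0.06), Prkag1 (0.06) and Gcdh (0.07), and those to Lcn2 (0.46) were Atl1, Dzank1 and Zfp799, all at 0.18. Genes with a flat profile are near many others by this measure, so the values are read against the root mean square of each gene itself.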

How the data were processed

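The submitters' processing notes name the builds mm10 and GRCm38 and the tools DESeq2 2.11.40.7, featureCounts 2.0.1, HISAT2 2.2.1 and fastp 0.23.2; the sources used here state neither options nor strandedness. The values the authors deposited are a signal, normalized counts per Entrez ID for 12 libraries, with no length correction. Dividing by the step of each column gave whole reads for 100% of values (tolerance 0.01 reads), and no column was left out. Of the IDs, 25275 were named from RefSeq GRCm38.p6 and 18 from GENCODE, and 1886 have no name. Exon lengths are from GENCODE.

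Genes at 10 or more in at least 3 libraries (13939) were fitted as log2(value + 1) with limma 3.58.1 (trend, all 12 libraries, two-sided, R 4.3.3) in 6 comparisons with a Benjamini-Hochberg adjusted p under 0.05 as the call; log2 values understate changes of low genes. The fit was tested on simulated data. From other lists, at most 4 called genes with the largest change in Actr3 KO-1 against Control 1 are named, and 3 nearest profiles per gene; copies of a named gene were looked up afterwards. One gene that this rule names is not reported here. The members and lists were chosen with earlier results of these data known. Alternatives were pseudocounts of 0.5 and 5, other filters and scalings, DESeq2 1.42.0 and edgeR 4.0.16 on the whole reads, a replicate block, the compared groups alone, and leaving out each library.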

Additional observations from a re-analysis of the deposited data

How the results depend on the processing

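Of 42 log2 differences of the 7 measured genes, 29 kept their direction and call under every alternative run, 23 for each gene except C4b and C1s1, which the filter on a mean of at least 50 dropped and which had 22. Every count of called genes stayed within 1.5 times its value, and edgeR on the recovered reads called 9856 genes in Actr3 KO-1 against Control 1, where limma called 9724. The sign turned only for 3 differences near 0, and the causes were not tested. Cd59a in Actr3 KO-1 against Control 1 became -0.056 with quantile normalization and -0.053 with chromosome medians subtracted. Lcn2 in Actr3 KO-1 CB against Control 1 became -0.019 with edgeR, -0.013 with DESeq2, -0.050 with chromosome medians subtracted, -0.19 without Actr3 KO-1 CB replicate 1, -0.21 without Control 1 replicate 1 and -0.024 without the unnumbered control library, and with single libraries left out it ranged from -0.21 to 0.24. Cfb in Actr3 KO-1 CB against Actr3 KO-1 became 0.064 with quantile normalization, 0.0094 with chromosome medians subtracted and 0.0019 without Actr3 KO-1 CB replicate 2, and ranged from -0.17 to 0.0019 with single libraries left out. The fitted C4b differences from Control 1 depend on the pseudocount, 3.31 with 5 and 4.73 with 1 in Actr3 KO-1. Replicate numbers did not pair the libraries: the correlation of deviations was -0.04 to 0.07 for 15 same-numbered pairs and -0.10 to 0.10 for 30 others. With the replicate number as a block, and the unnumbered control library left out, 9080 genes were called in Actr3 KO-1 against Control 1, and C1s1 in dKO against Control 1 passed at 0.88 (adjusted p = 0.0343). C4b in Control 1, Cd55 and Saa3 each held only a few reads, and the cause was not tested.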

Other observations

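Within the ciliobrevin D group the first library stood highest for C3, Cfb, C4b, C1ra and Lcn2, and lowest for Cd59a. The gap was widest for C3, at 1427 normalized counts against 767 and 796, and for Lcn2, at 1652 against 1059 and 1166. In Control 1, Lcn2 spread from 945 to 1760, and in dKO and Actr3 KO-1 it varied by far less (1768 ± 15.1 and 2458 ± 26.7, SD, n = 3 each). For C1ra the first ciliobrevin D library was level with the second, at 144 against 143. For C1s1 the first ciliobrevin D library lay between the others, at 50.5 against 35.8 and 62.2.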
